A study of Mus musculus with 106 samples.

Results

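The clustered protocadherins were read from ribosome-bound and total brain RNA of Huntington's disease (HD) model mice. Members were chosen by symbol, as protein-coding genes of the alpha, beta and gamma protocadherin clusters, and 57 of 21897 protein-coding genes in the count table met the rule. The alpha cluster gave 14 members (12 alternate genes with Pcdhac1 and Pcdhac2), the beta cluster 22, and the gamma cluster 21 (12 gamma-A, 6 gamma-B and the 3 genes Pcdhgc3, Pcdhgc4 and Pcdhgc5). 2 genes carry the symbol Pcdha11 and are kept apart by their identifiers, ENSMUSG00000007440 and ENSMUSG00000102206. Pcdhgb8 is a polymorphic pseudogene in the annotation used here and was not counted as a member. In each comparison 56 members passed the filter on low counts (a mean above 10 in the libraries compared), and the member that did not was Pcdhb1.

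HD mice carried 1 expanded allele (Hdh Q7/Q200) and control littermates 2 normal alleles (Hdh Q7/Q7), on a 129S4 background and at about 9 months of age. Mice of both genotypes were also heterozygous for RiboTag, a floxed Rpl22 that gains an HA tag after recombination, and for a Cre driver. HD and control mice of 1 line thus shared these alleles, and the Cre allele differed between lines. The study's methods give this breeding, strain and age for the Gad2, PV and vGluT2 lines. Gad2-IRES-Cre marked GABAergic neurons, PV-IRES-Cre parvalbumin neurons and vGluT2-IRES-Cre the glutamatergic neurons that use Slc17a6. Another line is labelled SST, for somatostatin neurons. Neither its Cre allele nor its breeding is described in the study's methods, and whether its controls were littermates is not given. Cre expressed at any time before death tags a cell, and the tagged population can therefore be wider than the cells that use the driver gene in the adult. Ribosome-bound mRNA (IP) was pulled down with anti-HA from the cerebrum without olfactory bulb or from the cerebellum, and total RNA (input) came from the same tissue. The 106 libraries (67 IP, 39 input) came from 45 mice and fell into 24 groups of 3 to 6 mice, so each replicate is 1 mouse.

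The clusters lie one after the other on mouse chromosome 18 (GRCm38, plus strand), alpha at chr18:36930184-37187661, beta at chr18:37264938-37524479 and gamma at chr18:37661793-37841873. Each alpha and gamma gene consists of its own large variable exon, which encodes the extracellular cadherin repeats, the membrane span and a short cytoplasmic stretch, spliced to 3 constant exons shared by its whole cluster. The beta genes are single exons and have no shared tail. The proteins bind like to like between cells and give a neuron a surface identity, used in dendrite self-avoidance and in axon spacing. A neuron switches on a handful of the alternate genes, chosen largely at random through CTCF and cohesin-dependent contact between promoters and distant enhancers, whereas the C-type genes (Pcdhac1, Pcdhac2, Pcdhgc3, Pcdhgc4 and Pcdhgc5) are switched on by cell type. In a bulk library the alternate genes are therefore averages over many different cells.

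The shared exons limit what counts can say about single alpha and gamma members. Over the members' annotated exons, bases that lie also in another member made up 38.0 to 54.9% in the alpha cluster (median 53.4%), 27.8 to 66.8% in the gamma cluster (median 44.6%) and 0 to 9.67% in the beta cluster (median 0%). Reads from the constant exons were divided among members by the estimation step before deposit. Their part in any single value was not tested.

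Total counts on mouse genes ranged from 21905200 to 107754000 per library (median 35866700), of which 20151 to 141534 fell on the members (median 41000), and 50 to 57 members had at least 10 counts. Htt, the gene that carries the expansion, had a lower mean in HD than in control mice in all 12 pairs of groups, for example 47.8 ± 8.60 against 65.0 ± 9.53 CPM (SD, n = 6 each; CPM are counts scaled to library size) in the cerebral Gad2+ IP. Marker genes followed the labels: the summed level of Gad1, Gad2 and Slc32a1 in control mice was 2818 and 3089 CPM in the cerebral and cerebellar Gad2+ IPs, 2789 in the PV+ IP, 1475 in the SST+ IP, and 84.2 and 191 in the cerebral and cerebellar vGluT2+ IPs. Sst stood at 1458 CPM in the SST+ IP and at 142 CPM in total RNA of that line. Slc17a6, the vGluT2 gene, stood at 117 CPM in the cerebral vGluT2+ IP against 35.0 CPM in total RNA of that line, but also at 127 and 117 CPM in the PV+ and SST+ IPs. Mbp, the myelin basic protein gene of oligodendrocytes, remained at a mean of 1217 CPM in the SST+ IP, more than in the other control IPs (262 to 820 CPM). Purkinje cell markers (Pcp2, Calb1 and Car8) summed to 89.3 to 651 CPM in control and 62.9 to 1553 CPM in HD libraries of the PV+ IP. In the cerebral Gad2+ IP they summed to 249 to 489 CPM in control and 170 to 632 CPM in HD libraries. The part of cerebellar RNA in the PV+ values was not tested. In the SST line, 3 of the 5 control IP libraries and 2 of the 4 control inputs, but no HD library, came from mice whose labels start with another letter code. Protein-coding genes took 77.4 to 98.1% of counts per library (median 96.6%). The lowest shares were in replicate 5 of the control cerebellar Gad2+ IP (77.4%) and the re-sequenced HD cerebral vGluT2+ IP library (81.9%). The latter also had the fewest members with at least 10 counts, 50. The part of these shares in the values was not tested. Some libraries stood apart for the members themselves. Replicate 1 of the SST+ control IP had the lowest Pcdhac2 and Pcdhgc5 of its group, and replicate 4 of the HD cerebellar Gad2+ IP the lowest alpha and beta sums of its group.

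To compare genes, CPM were divided by the mean annotated transcript length in kilobases, called the level here. In control IPs the gamma cluster held most of the summed level of the members, from 59.2 ± 4.76% (SD, n = 6) in the PV+ IP to 65.8 ± 4.38% (n = 6) in the cerebral vGluT2+ IP. As a share of the reads on members, the gamma cluster held 54.2% in the PV+ IP, 60.2% in the cerebral vGluT2+ IP and 64.6% in the cerebellar vGluT2+ IP, which was then the highest. By level, the beta cluster held 19.3 to 23.7% and the alpha cluster 11.8 to 19.8%. Summed levels of the gamma cluster were 247 ± 28.8 in the cerebellar Gad2+ IP (n = 6), 223 ± 28.6 in the cerebellar vGluT2+ IP (n = 5), 194 ± 31.6 in the cerebral vGluT2+ IP (n = 6), 184 ± 33.2 in the cerebral Gad2+ IP (n = 6), 155 ± 16.6 in the SST+ IP (n = 5) and 132 ± 17.3 in the PV+ IP (n = 6). Neighbours in that order differ by less than the sum of their SDs. The sums depend on the transcript length used: over the union of exons they were 180 in the cerebellar Gad2+, 172 in the cerebellar vGluT2+, 112 in the cerebral vGluT2+, 117 in the cerebral Gad2+, 100.2 in the SST+ and 85.3 in the PV+ IP. Alpha sums were highest in the cerebellar Gad2+ IP (59.5 ± 5.10), and the other control IPs lay between 37.6 and 44.0. In the bulk RNA used here, fewer cells that use a gene and less RNA per cell cannot be told apart.

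**Figure D1:**
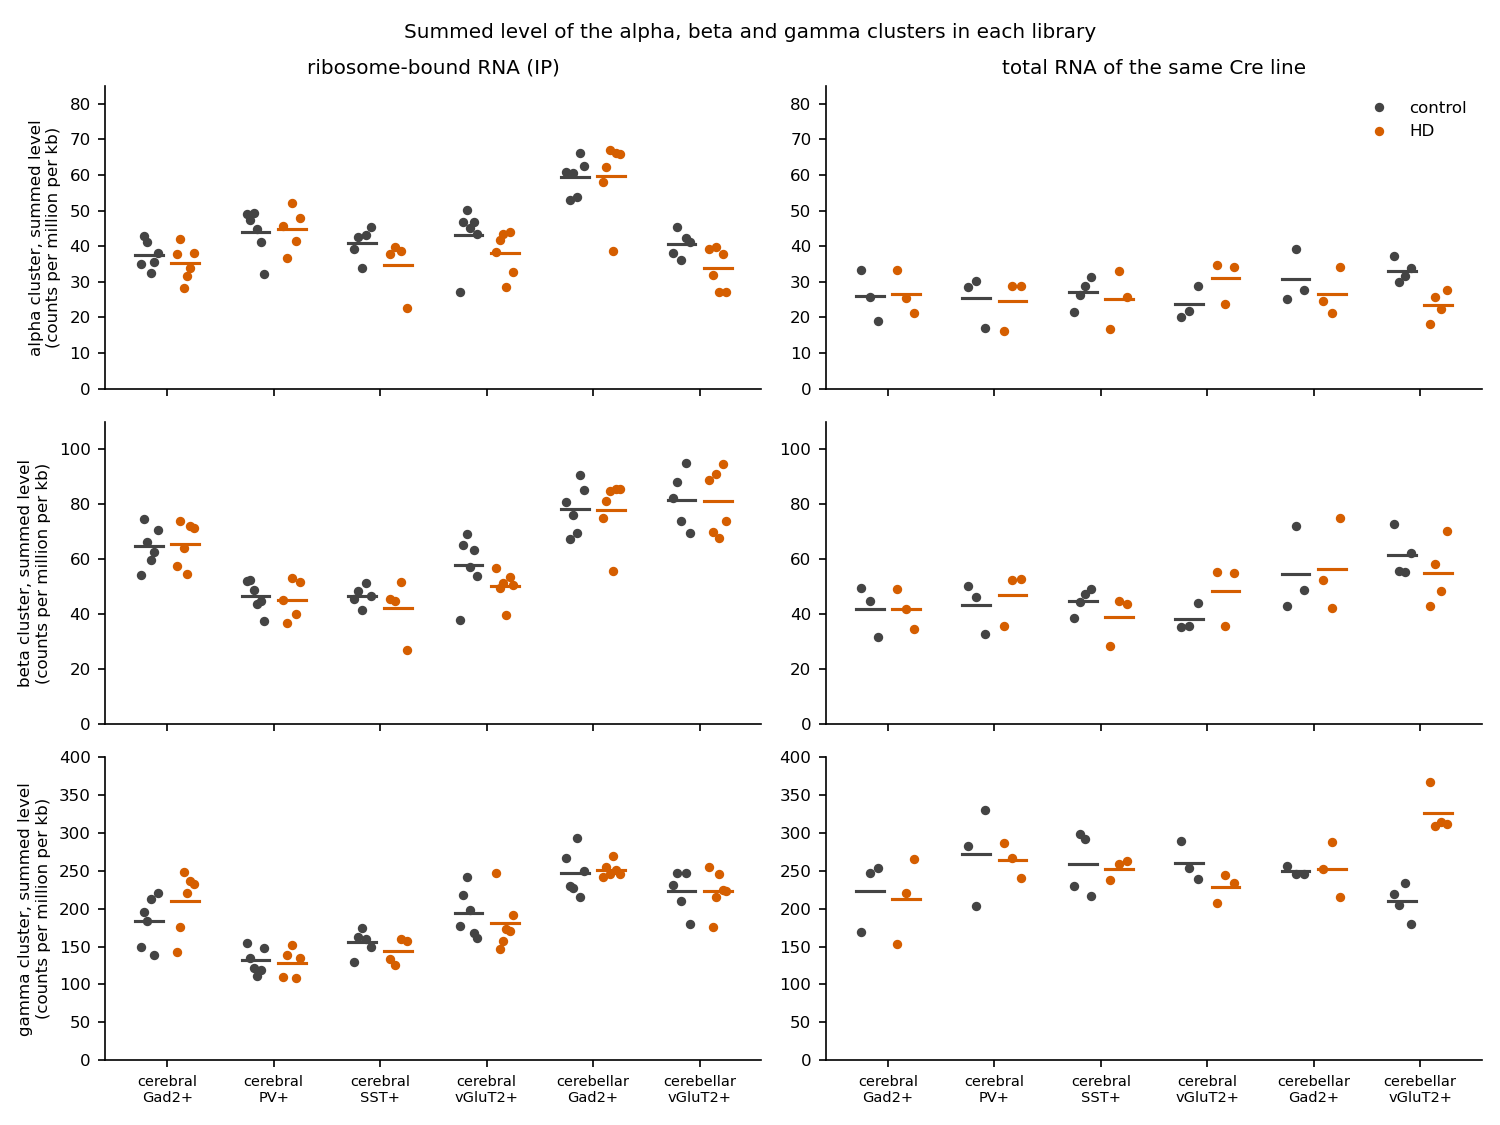
Summed level of the alpha, beta and gamma clusters (CPM per kilobase of transcript, linear axes from 0) in every library, with ribosome-bound RNA on the left and total RNA of the same Cre line on the right. Points are mice (grey control, orange HD) and bars are group means; the HD total RNA of the cerebellar vGluT2 line (mean 326) stands above its controls (mean 210) for the gamma cluster.

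The 5 C-type genes together made up 38.4 ± 2.46% of the summed level in the cerebellar vGluT2+ IP and 52.9 to 59.2% in the other control IPs. Pcdhgc4, the C-type that is known from knockouts to be needed for survival of interneurons, was the highest member in every control IP, with a mean level of 91.98 over the 6 groups. Its level depends on which transcripts are counted: with the longest transcript alone it was 66.8, still the highest. Pcdhgc5 had 26.5 by mean length and 10.8 by its longest transcript, because short transcripts are annotated for it. By mean length Pcdhgc3 followed with 19.8, Pcdhac2 with 14.0 and Pcdhac1 with 2.05. These values were the same by the longest transcript, where Pcdhgc5 stood below Pcdhgc3 and Pcdhac2. Among alternate alpha genes Pcdha4 (6.38) and Pcdha12 (4.22) were highest and Pcdha8 (0.159) lowest. Among beta genes Pcdhb8 (7.60) and Pcdhb6 (6.07) were highest by mean length, but by the longest transcript they had 4.33 and 3.59 and stood below Pcdhb3 (5.12), and Pcdhb1 (0.0439) was close to absent. The extremes of the gamma-A genes were Pcdhga4 (6.35), Pcdhga7 (4.13) and Pcdhga1 (1.20). By the longest transcript Pcdhga4 (3.71) and Pcdhga7 (3.39) stood below Pcdhga11 (3.99). The extremes of the gamma-B genes were Pcdhgb6 (4.22), Pcdhgb2 (2.89) and Pcdhgb4 (1.07).

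**Figure D2:**
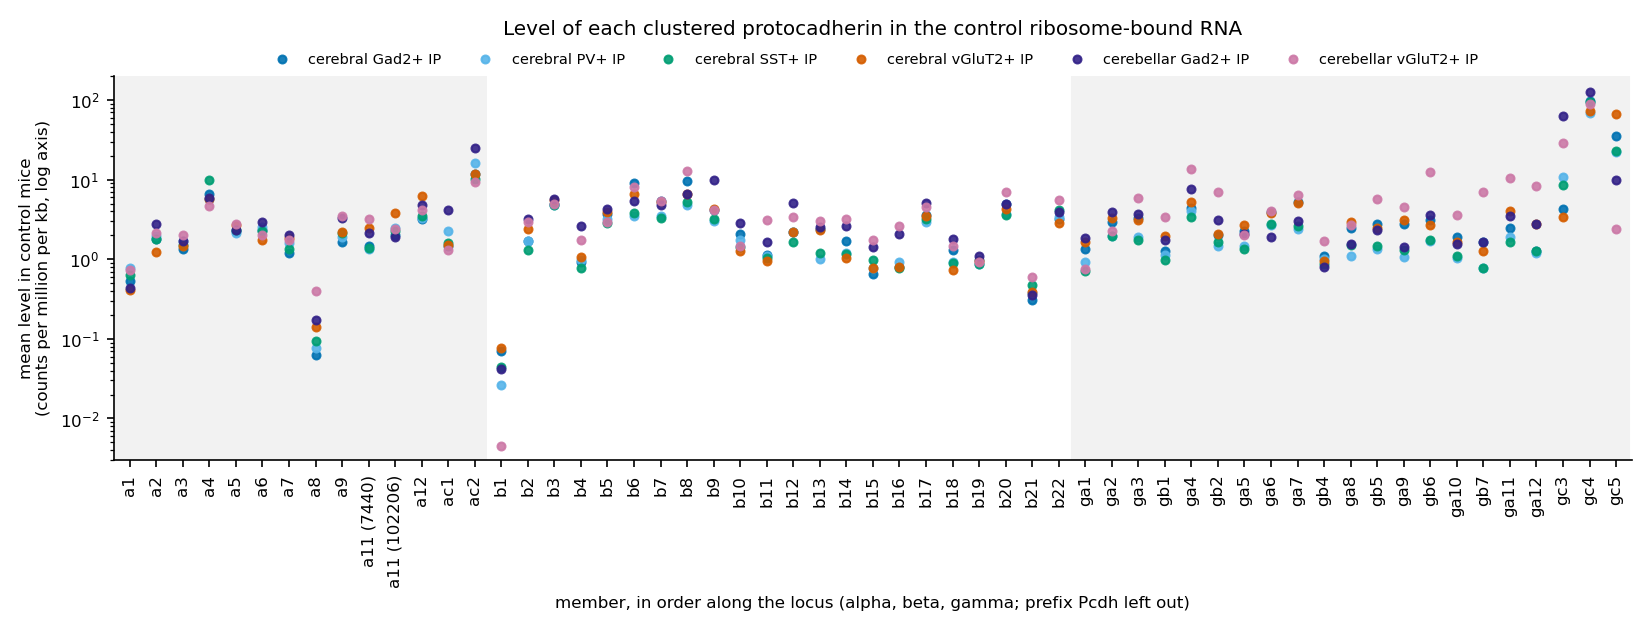
Mean level of each member in the control ribosome-bound RNA (CPM per kilobase, log axis), in order along the locus, with 1 colour per cell set and shading for the alpha and gamma clusters. Pcdhgc4, Pcdhgc5, Pcdhgc3 and Pcdhac2 have the highest means, Pcdhgc5 spreads from 2.42 to 66.6 between cell sets, and Pcdhb1 lies lowest.

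Of the C-types, Pcdhgc3 and Pcdhgc5 varied most between cell sets. Pcdhgc3 had lowest, median and highest values of 218, 286 and 394 CPM in the control cerebellar Gad2+ IP, and its values in the control cerebellar vGluT2+ IP were 94.6 to 162 CPM (median 152, n = 5). In the cerebral IPs it stayed far lower, at 6.14, 20.5 and 32.3 CPM for Gad2+, 30.0, 47.8 and 70.2 CPM for PV+, and 10.3, 15.6 and 22.5 CPM for vGluT2+. No control library of a cerebellar IP overlapped a cerebral one. Pcdhgc5 ran the other way, with 86.1, 119 and 184 CPM in the cerebral vGluT2+ IP against 2.83 to 6.85 CPM (median 4.37) in the cerebellar vGluT2+ IP. In Gad2+ neurons its values were 34.4, 80.5 and 85.4 CPM in the cerebrum and 9.94, 20.2 and 28.0 CPM in the cerebellum. No cerebellar IP library of control mice reached the lowest cerebral Gad2+ or vGluT2+ library. Pcdhac2 was highest in the cerebellar Gad2+ IP, with 118, 152 and 160 CPM, and the 5 other control IPs had medians of 52.3 to 94.0 CPM. Pcdhac1 was also highest there, with 16.0, 20.8 and 34.7 CPM, against medians of 7.28 to 13.01 CPM elsewhere. Pcdhgc4 varied least of the C-types, with group medians from 249 (cerebral vGluT2+) to 465.9 CPM (cerebellar Gad2+).

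**Figure D3:**
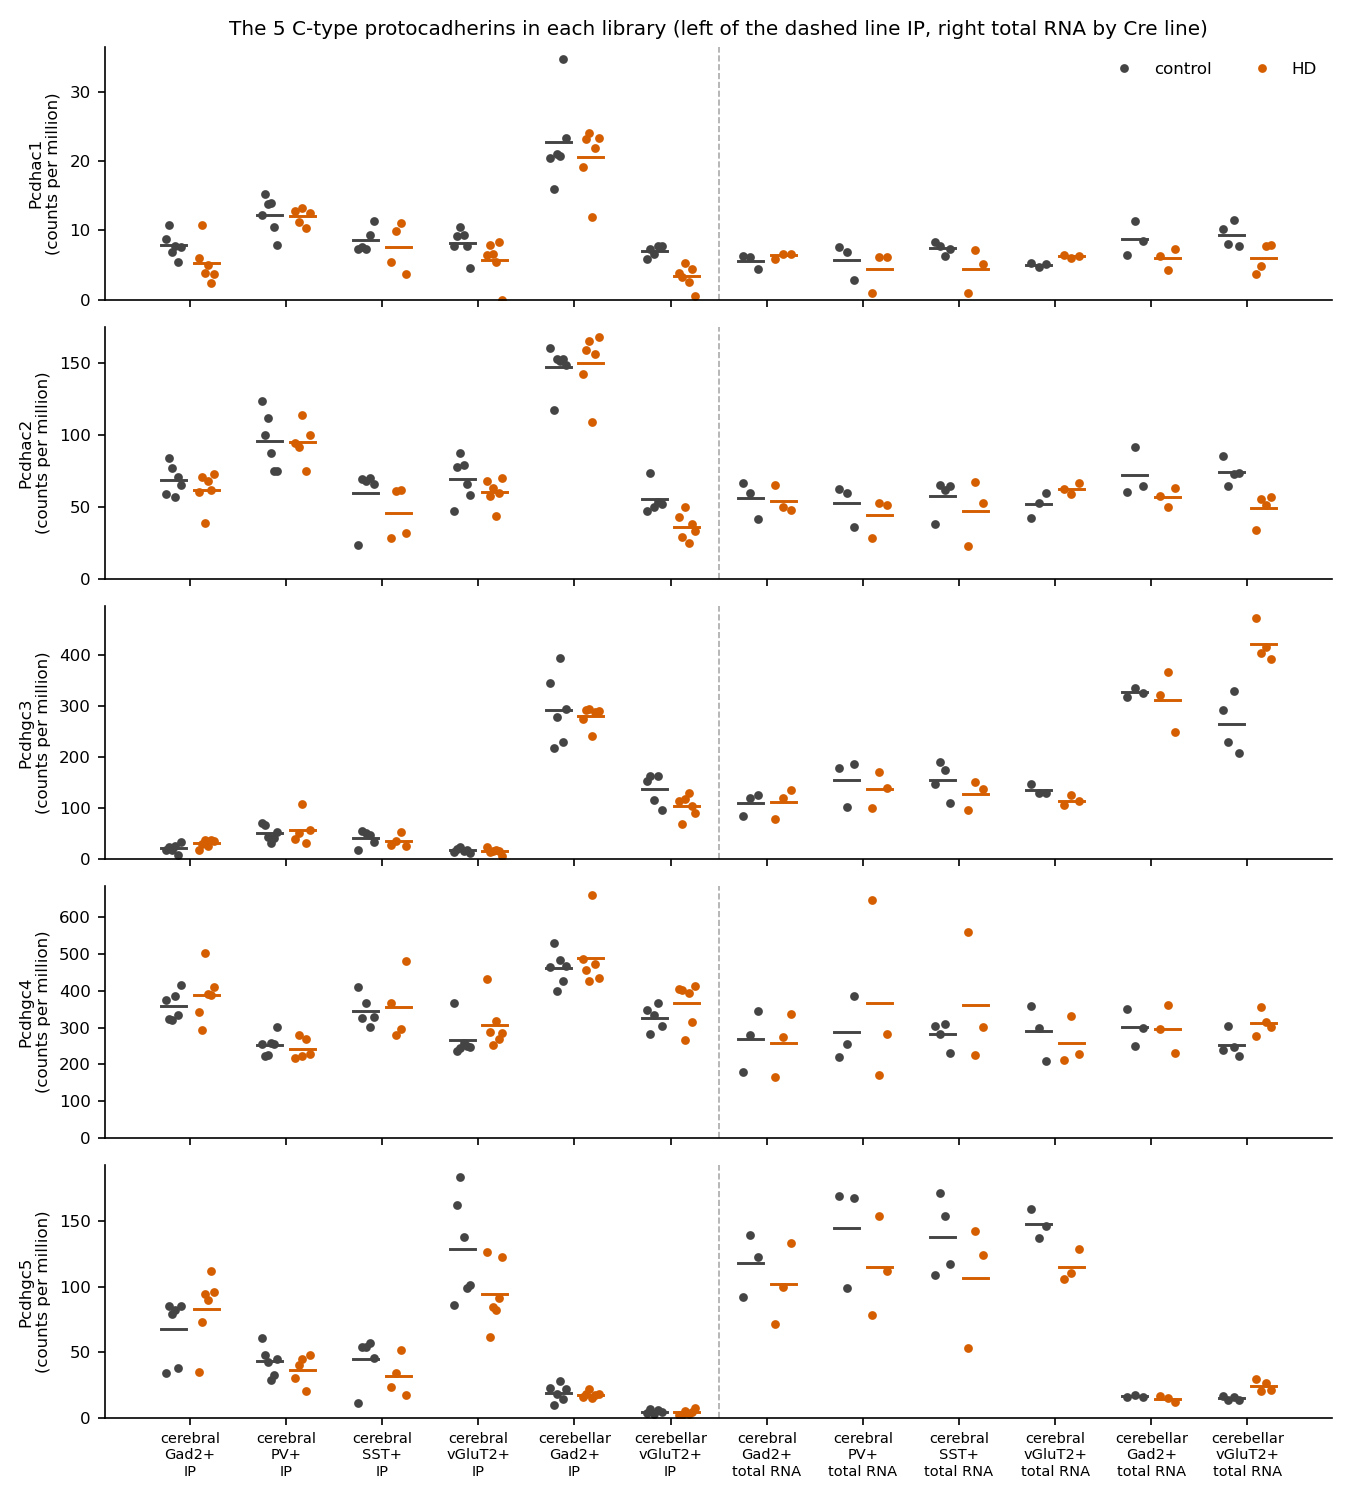
CPM of the 5 C-type protocadherins in each library (linear axes from 0), with the IPs left of the dashed line and total RNA of each Cre line right of it. Points are mice (grey control, orange HD) and bars are means; Pcdhgc3 is high in cerebellar sets, Pcdhgc5 in cerebral sets, and Pcdhac1 and Pcdhac2 in the cerebellar Gad2+ IP.

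Which members differ between regions within 1 neuron class was asked with edgeR's quasi-likelihood test on control IPs, with Benjamini-Hochberg adjustment over all genes tested and a call at an adjusted p of 0.05 or less. In Gad2+ neurons 16 of 56 members were higher in the cerebellum (23.4% of all genes tested were called higher) and 7 were lower (27.9%). Pcdhgc3 had the largest difference, a log2 ratio of 3.79 ± 0.30 (SE; adjusted p = 2.9e-08 by edgeR), followed by Pcdhac1 (1.47 ± 0.20) and Pcdhac2 (1.04 ± 0.12) among the C-types. Pcdhgc5 was lower (-1.88 ± 0.27, adjusted p = 2.7e-05 by edgeR), as was the beta gene Pcdhb6 (-0.79 ± 0.16). The other calls lower were Pcdhb8, Pcdhga6, Pcdhga7, Pcdhga8 and Pcdhga9. The share of members called lower (7 of 56) was under that of all genes, and the share called higher was near it.

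In vGluT2+ neurons, which in the cerebellum carried the granule cell markers Gabra6, Neurod1 and Etv1 at a summed 3309 CPM, 24 of 56 members were higher in the cerebellum (31.1% of all genes) and 7 lower (32.0%). Pcdhgc3 was again higher (3.02 ± 0.20, adjusted p = 1.2e-08 by edgeR). All 6 gamma-B genes had log2 ratios above 0 (0.73 to 2.38) and 5 were called, with Pcdhgb7 at 2.38 ± 0.23 and control values of 22.9 to 39.2 CPM against 3.53 to 8.76 CPM in the cerebrum. Pcdhgc5 had the largest difference of any member in the comparisons made here, -4.85 ± 0.27 (adjusted p = 3.1e-09 by edgeR). Pcdha12 was lower (-0.64 ± 0.11), and its values of 21.4 to 24.9 CPM lay below all 6 cerebral libraries (27.3 to 37.8 CPM). Both neuron classes called 9 members higher in the cerebellum, 56.2% of the Gad2+ list and 37.5% of the vGluT2+ list, where all genes tested in both gave 57.9% and 42.6% (13.4% of them were called higher in both): Pcdha9, Pcdhb4, Pcdhb12, Pcdhb14, Pcdhb15, Pcdhb16, Pcdhga4, Pcdhga12 and Pcdhgc3. Pcdhgc5 was the only member called lower in both (17.6% of all genes), and Pcdha12, Pcdhac2 and Pcdhb8 were called in opposite directions (6.31%). Both regions came from the same 6 mice for Gad2+, and the 5 cerebellar vGluT2+ mice were among the 6 cerebral ones. A fit with the mouse as a block gave 16 higher and 6 lower for Gad2+ and 25 and 7 for vGluT2+. The shares of all genes above belong to the fit without the block, and those of the blocked fit are not given here.

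Between neuron classes the cerebrum and cerebellum differed in scale. In the cerebrum 5 of 56 members were higher in vGluT2+ than in Gad2+ control IPs (15.2% of all genes) and 3 lower (14.7%). Pcdhga12 (1.14 ± 0.24), Pcdha12 (0.95 ± 0.13), Pcdha11 with the identifier ENSMUSG00000102206 (0.93), Pcdhgc5 (0.92 ± 0.25) and Pcdhga11 (0.68) were higher, and Pcdhb10, Pcdhb14 and Pcdhgc4 (-0.42 ± 0.12) lower. In the cerebellum the counts were 22 higher (28.7%) and 12 lower (27.5%). Gamma genes made up 15 of the 22: all 6 gamma-B and 9 of the 12 gamma-A genes, led by Pcdhgb7 (2.06 ± 0.19, adjusted p = 2.6e-07 by edgeR) and Pcdhgb6 (1.74 ± 0.17). For Pcdhgb6 the 5 vGluT2+ values were 38.5 to 70.1 CPM and the 6 Gad2+ values 12.7 to 21.4 CPM, with no overlap. All 5 C-types were lower in cerebellar vGluT2+ neurons, with ratios of -2.08 ± 0.27 for Pcdhgc5, -1.73 ± 0.18 for Pcdhac1, -1.46 ± 0.13 for Pcdhac2, -1.14 ± 0.18 for Pcdhgc3 and -0.54 ± 0.11 for Pcdhgc4. Between PV+ and SST+ IPs no member was called higher (9.86% of all genes, edgeR) and 1, Pcdhgc4, lower in PV+ (8.19%; -0.42 ± 0.11); DESeq2 called 2 members higher (11.9% of all genes). Mbp and the summed astrocyte markers were higher in the SST+ IP (1217 against 820 CPM and 333 against 236 CPM), and their part in this comparison was not tested.

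Total RNA of control mice gave the regional contrast for the whole tissue, where 25 of 56 members were higher in the cerebellum (28.9% of all genes) and 5 lower (29.2%). Pcdhgc3 was higher by 1.29 ± 0.14 and Pcdhb14 by 1.38 ± 0.24, whereas Pcdhgc5 was lower (-3.08 ± 0.12, adjusted p = 5.9e-10 by edgeR). The 7 cerebellar inputs of control mice had 13.3 to 17.1 CPM of Pcdhgc5 and the 6 cerebral ones of the same lines 91.99 to 159 CPM. The gamma-A genes were mixed, with 4 higher and 4 lower. Some of these mice gave inputs of both regions, and no fit with the mouse as a block was made for this contrast.

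Whether a member's RNA was enriched on the tagged ribosomes was read by comparing each IP with all inputs of its region. The median log2 ratio of the alpha and beta genes was above 0 and that of the gamma genes below 0 in all 6 sets. The beta median lay between the other two except in the cerebral Gad2+ IP, where it was above the alpha median. In the cerebral Gad2+ IP 25 of 56 members were higher (36.7% of all genes) and 14 lower (32.0%), in the PV+ IP 21 (37.3%) and 22 (38.9%), in the SST+ IP 16 (35.2%) and 23 (34.3%), and in the cerebral vGluT2+ IP 19 (33.1%) and 16 (35.0%). In the cerebellum the Gad2+ IP had 26 higher (33.1%) and 15 lower (34.2%), and the vGluT2+ IP 26 (36.1%) and 8 (33.8%). The direction of most calls followed the cluster. In the PV+ IP 11 of 14 alpha genes were higher and none lower, while 20 of 21 gamma genes were lower and none higher, with median log2 ratios of 0.85 and -1.24. In the SST+ IP 8 alpha genes were higher and 20 gamma genes lower (medians 0.58 and -1.43), in the cerebral vGluT2+ IP 10 and 16 (0.72 and -0.63), in the cerebral Gad2+ IP 8 and 14 (0.42 and -0.56) and in the cerebellar Gad2+ IP 12 and 15 (0.93 and -1.11). Against this direction, 1 gamma gene was higher in the cerebral Gad2+ IP and 2 in the cerebellar Gad2+ IP. Gamma genes of the cerebellar vGluT2+ IP departed from this, with 2 higher, 6 lower and a median of -0.08. Alpha genes of that IP had 10 higher, 2 lower and a median of 0.78. Beta genes had medians of 0.10 to 0.62 in the 6 sets. They were called lower only in the PV+ IP (2, with 10 higher) and in the SST+ IP (3, with 8 higher). The comparisons of 1 region share their inputs.

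**Figure D4:**
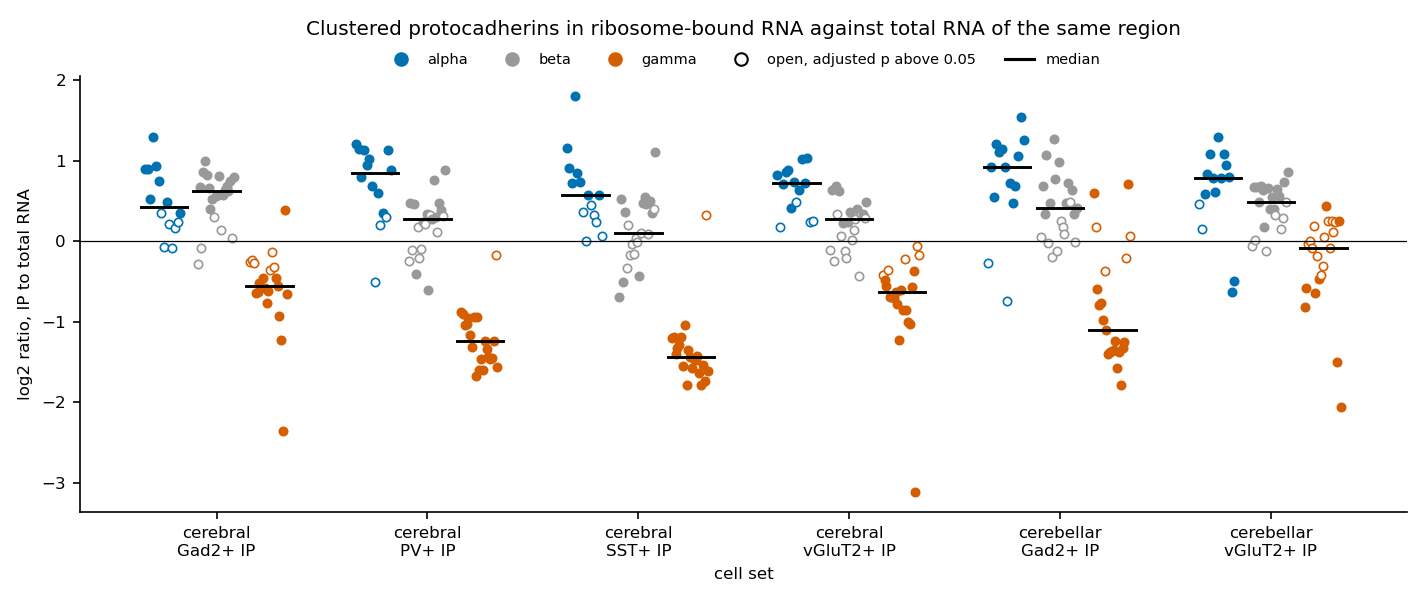
Log2 ratio of IP to total RNA for each tested member (points; blue alpha, grey beta, orange gamma; filled where the adjusted p is 0.05 or less) in the 6 cell sets, with bars at the cluster medians. Gamma medians lie at -0.56 to -1.43 in 5 of the sets, with 0 to 4 of the 21 genes above 0, and near 0 in the cerebellar vGluT2+ IP.

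Pcdhgc3 had the lowest ratio of all members in the cerebral Gad2+ and vGluT2+ IPs. Cerebral inputs had 77.5 to 189 CPM, above every library of the Gad2+ and vGluT2+ IPs (4.66 to 37.1 CPM), and the log2 ratios were -2.35 ± 0.18 in the Gad2+ and -3.11 ± 0.16 in the vGluT2+ IP (adjusted p = 9.3e-15 and 2.5e-19 by edgeR). In the PV+ IP the ratio was -1.24 ± 0.15 and in the SST+ IP -1.73 ± 0.16. In the cerebellum Pcdhgc3 was lower in the vGluT2+ IP (-1.50 ± 0.15), and its ratio in the Gad2+ IP was -0.21 ± 0.11 (adjusted p = 0.097 by edgeR). Pcdhac1 and Pcdhac2 were higher in the cerebellar Gad2+ IP (1.54 ± 0.15 and 1.25 ± 0.10) and in the PV+ IP (1.14 ± 0.19 and 0.89 ± 0.12), and lower in the cerebellar vGluT2+ IP (-0.63 ± 0.21 and -0.49 ± 0.10). Pcdhac1 was also higher in the SST+ IP (0.58 ± 0.22) and Pcdhac2 in the cerebral Gad2+ IP (0.35 ± 0.12). Pcdhgc5 was lower in the PV+ and SST+ IPs (-1.57 ± 0.14 and -1.61 ± 0.20), in the cerebral Gad2+ IP (-0.65 ± 0.16) and in the cerebellar vGluT2+ IP (-2.06 ± 0.20). Pcdhgc4 was higher in both Gad2+ IPs, by 0.39 ± 0.14 in the cerebrum and 0.71 ± 0.09 in the cerebellum, and in the cerebellar vGluT2+ IP by 0.25 ± 0.09. The other ratios of these 4 genes were not called.

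Among alternate genes the beta gene Pcdhb9 was higher by 1.27 ± 0.07 in the cerebellar Gad2+ IP (adjusted p = 1.6e-14 by edgeR), and Pcdhb20 was higher by 0.75 ± 0.10 in the cerebral Gad2+ and by 0.73 ± 0.10 in the cerebellar vGluT2+ IP. Pcdhga7 was lower in the PV+ and SST+ IPs (-1.67 ± 0.14 and -1.79 ± 0.19), and Pcdhgb7 in the cerebellar Gad2+ IP (-1.79 ± 0.17). Markers of glia moved with the same contrast: Mbp averaged 3670 CPM in total RNA of the cerebral vGluT2 line against 262 CPM in its IP, and astrocyte markers summed to 574 against 71.7 CPM. Their part in the gamma difference was not tested. With the mouse as a block, only the cerebral vGluT2+ count moved by more than 1.5 times, to 5 members higher and 17 lower. Against inputs of the same Cre line alone the vGluT2+ count was 9 higher, and the cerebral Gad2+ IP had 6 members called lower. The shares of all genes called with the block or within 1 Cre line are not given here. Whether these counts moved more than those of all genes cannot be read from them.

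The HD comparison was made in each of the 6 IPs and in total RNA of each region. In the IPs no member was called. All of 56 tested members had an adjusted p above 0.05 in the cerebral Gad2+ IP (0.0279% of all genes were called), the PV+ IP (0.0408%), the SST+ IP (0%), the cerebral vGluT2+ IP (0%), the cerebellar Gad2+ IP (0.0142%) and the cerebellar vGluT2+ IP (2.09%). At an unadjusted p under 0.05 there were 2, 0, 0, 1, 0 and 8 members, in the same order, where 9.20, 4.21, 1.47, 7.61, 2.41 and 15.4% of all genes passed. DESeq2 called 3 of 56 members in the cerebellar vGluT2+ IP, where it called 5.04% of all genes, and 0 in the other IPs (0.523, 0.287, 0.0136, 0.216 and 0.156% of all genes, in the same order). In the cerebellar vGluT2+ IP both counts of members were near the share of all genes.

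In the cerebral IPs the members with the smallest p were Pcdhb12 in Gad2+ neurons (0.37 ± 0.16, adjusted p = 0.54 by edgeR), Pcdhgb7 in PV+ (0.49 ± 0.24, adjusted p = 0.9998), Pcdhb21 in SST+ (-0.77 ± 0.38, adjusted p = 0.9999) and Pcdhb20 in vGluT2+ neurons (-0.30 ± 0.12, adjusted p = 0.65). In the cerebellar Gad2+ IP it was Pcdhga11 (-0.28 ± 0.19, adjusted p = 0.999997). The gamma cluster had a median of 0.28 in the cerebral Gad2+ IP, with 17 of 21 members above 0, and of -0.35 in the SST+ IP, with 19 of 21 below 0. In the cerebral vGluT2+ IP 17 of 21 gamma members were below 0 (median -0.14), and in the PV+ IP 13 of 21 were above 0 (median 0.10). Beta members below 0 numbered 19 of 21 in the SST+, 17 in the cerebral vGluT2+, 13 in the PV+ and 7 in the cerebral Gad2+ IP. The beta medians were -0.11, -0.19, -0.04 and 0.03, in the same order. Medians over all genes tested lay within 0.03 of 0 in every HD comparison. Without the 3 SST+ control mice that carry the other letter code, no member was called either. The C-types of the cerebral IPs overlapped between genotypes: Pcdhgc3 had 6.14 to 32.3 CPM in control and 17.03 to 37.1 CPM in HD Gad2+ libraries (0.53 ± 0.30, adjusted p = 0.54 by edgeR), and Pcdhgc5 had 86.1 to 184 and 61.4 to 127 CPM in the vGluT2+ libraries (-0.39 ± 0.21, adjusted p = 0.66 by edgeR).

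The cerebellar vGluT2+ IP came closest to a call. Pcdhac2 had 47.2, 49.7, 52.3, 53.6 and 73.5 CPM in the 5 control mice and 25.2 to 50.3 CPM (median 35.8) in the 6 HD mice, so that only the highest HD library reached into the control range. The log2 ratio was -0.58 ± 0.15 (adjusted p = 0.075 by edgeR). Pcdhac1, its neighbour, had 5.84, 6.63, 7.28, 7.73 and 7.78 CPM in control mice and 0.527 to 5.29 CPM (median 3.60) in HD mice, with no overlap, and a ratio of -1.07 ± 0.37 (adjusted p = 0.17 by edgeR). The beta gene Pcdhb3 had 14.8, 19.1, 19.3, 19.6 and 21.0 CPM in control and 19.2 to 29.3 CPM in HD mice (0.45 ± 0.12, adjusted p = 0.086 by edgeR). DESeq2 called these 3 genes, the first 2 lower and Pcdhb3 higher. With 1 library left out edgeR called 0 or 1: Pcdhac2 without HD replicate 3 and Pcdhac1 without HD replicate 6. Pcdhgc3, Pcdhgc4 and Pcdhgc5 had ratios of -0.37 ± 0.18, 0.20 ± 0.14 and -0.20 ± 0.34. Granule cell markers moved in the same libraries: 1 of the 3, Neurod1, was called lower (-0.86 ± 0.16), and their sum was 1436 to 3019 CPM in HD and 2648 to 3848 CPM in control mice. Markers listed for striatal projection neurons (Drd1, Drd2 and Ppp1r1b) summed to 27.6 to 44.0 CPM in HD and 50.5 to 61.9 CPM in control mice, with no overlap, and Ppp1r1b was called lower (-0.62 ± 0.13; 1 of 3). Most of that sum was Ppp1r1b (means of 33.7 CPM in HD and 52.6 CPM in control mice), and Drd1, a defining marker of these cells, had means of 0.378 and 0.458 CPM. The part of either list in the Pcdhac1 and Pcdhac2 values was not tested.

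The difference between the HD effects of vGluT2+ and Gad2+ neurons was tested with an interaction term. In the cerebellum no member of 56 was called (0.107% of all genes; 6 members and 7.01% of all genes at p under 0.05), and Pcdhac2 had the smallest p (-0.60 ± 0.19, adjusted p = 0.38 by edgeR). In the cerebrum there was none either (0%; 1 member and 1.51% of all genes at p under 0.05), with Pcdhga2 at -0.66 ± 0.30 (adjusted p = 0.99998 by edgeR). DESeq2 also called 0 members in both regions (0.544% of all genes in the cerebellum and 0.00692% in the cerebrum).

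In total RNA of the cerebrum, fitted over 4 Cre lines with line as a covariate (12 HD and 13 control libraries), no member was called (0.652% of all genes; 1 member and 7.09% of all genes at p under 0.05), nor by DESeq2 (1.43% of all genes). Pcdhgc5 had the smallest p, -0.29 ± 0.14 (adjusted p = 0.67 by edgeR). The alpha, beta and gamma medians were 0.18, 0.14 and -0.02, against 0.03 for all genes tested.

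Total RNA of the cerebellum was the only HD comparison with member calls by edgeR. Over the Gad2 and vGluT2 lines together (7 HD and 7 control libraries) 9 of 56 members were higher and 2 lower, while 25.6% of all genes tested were called in either direction. The share of members was thus below that of all genes, and the direction followed the cluster. The 9 higher were gamma genes at places 7 and 9 to 16 of the 21: Pcdhga5, Pcdhga7, Pcdhgb4, Pcdhga8, Pcdhgb5, Pcdhga9, Pcdhgb6, Pcdhga10 and Pcdhgb7. No gamma gene after place 16 was called. The 2 lower were Pcdhac1 (-0.60 ± 0.20, adjusted p = 0.043 by edgeR) and Pcdhac2 (-0.48 ± 0.14, adjusted p = 0.032 by edgeR). All 21 gamma members had ratios above 0 (median 0.46), 12 of 14 alpha members had ratios below 0 (median -0.37), and beta members had a median of -0.08. Because of the shared exons, the gamma ratios are not independent of each other, nor are the alpha ratios.

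Pcdhgb5 (chr18:37731009-37841873), a gamma-B gene, had the smallest p. In the Gad2 line its values were 23.9, 23.5 and 19.0 CPM in control mice and 33.5, 42.2 and 31.0 CPM in HD mice. In the vGluT2 line they were 21.9, 16.0, 23.4 and 18.9 CPM in control and 57.2, 39.9, 42.7 and 49.7 CPM in HD mice. HD and control libraries did not overlap in either line, and the ratio over both was 1.003 ± 0.14 (adjusted p = 0.0033 by edgeR). Pcdhgb6 (chr18:37742094-37841873) had 36.5, 51.2 and 43.0 CPM in Gad2 line controls, 55.8, 62.1 and 55.03 CPM in Gad2 line HD mice, 38.8, 27.9, 39.3 and 31.1 CPM in vGluT2 line controls and 110, 68.9, 75.5 and 87.6 CPM in vGluT2 line HD mice. Its groups did not overlap either (0.93 ± 0.18, adjusted p = 0.016 by edgeR). Pcdhga9 (chr18:37736936-37841870) had 14.8, 12.7 and 14.1 against 21.6, 25.5 and 16.5 CPM in the Gad2 line and 11.6, 7.74, 13.1 and 13.4 against 40.1, 19.9, 21.7 and 28.8 CPM in the vGluT2 line (0.99 ± 0.19, adjusted p = 0.020 by edgeR). The other 6 calls higher had ratios of 0.51 to 0.75. In all 14 fits that left out 1 library Pcdhgb5 and Pcdhgb6 were called, with adjusted p values up to 0.013 and 0.048 by edgeR. Pcdhga9 was called in 11 of them, and the others in 3 to 7. The count of called members moved with single libraries. It was 15, 7 and 17 without control replicates 1, 2 and 3 of the Gad2 line, and 10, 2 and 23 without HD replicates 1, 2 and 3 of that line. For the vGluT2 line it was 2, 3, 4 and 3 without control replicates 1 to 4 and 9, 3, 3 and 2 without HD replicates 1 to 4. Over the same fits the calls among all genes ranged from 92 to 7456.

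The Cre lines were also fitted apart. In the vGluT2 line alone (4 HD, 4 control) 51.7% of all genes tested were called, with 18 of 21 gamma members higher, none lower and a median of 0.80, and with 4 alpha and 5 beta members lower. Pcdhgb6 had a ratio of 1.31 ± 0.18, Pcdhga9 of 1.26 ± 0.26 and Pcdhgb5 of 1.23 ± 0.17, and Pcdhb16 the lowest, -1.16 ± 0.24 (adjusted p = 0.0027 by edgeR). In the Gad2 line alone (3 HD, 3 control) none of 14226 genes was called, 12 of 21 gamma members lay above 0 and their median was 0.03. The ratios of Pcdhgb5, Pcdhga9 and Pcdhgb6 in that line were 0.68 ± 0.20, 0.61 ± 0.21 and 0.40 ± 0.19. An interaction of line and genotype, added after the values had been seen, called 0 of 56 members (1.72% of all genes) by edgeR, with 17 members at p under 0.05 (29.5% of all genes), and 9 by DESeq2 (13.3% of all genes). By edgeR no member's HD effect was thus shown to differ between the lines, and the counts over all members were near the shares of all genes. The clusters were uneven: 16 of 21 gamma, 1 of 14 alpha and 0 of 21 beta members had an unadjusted p under 0.05 by edgeR. All 21 gamma members had interaction ratios above 0 (median 0.74, against 0.02 for all genes tested). The gamma members share constant exons and come from the same mice, so these counts are not of 21 separate observations. The member with the smallest p of the interaction was Pcdhgc5, 0.89 ± 0.24 (adjusted p = 0.059 by edgeR). It had 13.3 to 16.2 CPM in control and 19.9 to 29.3 CPM in HD mice of the vGluT2 line. In the Gad2 line it had 15.5 to 17.1 and 11.6 to 16.6 CPM.

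**Figure D5:**
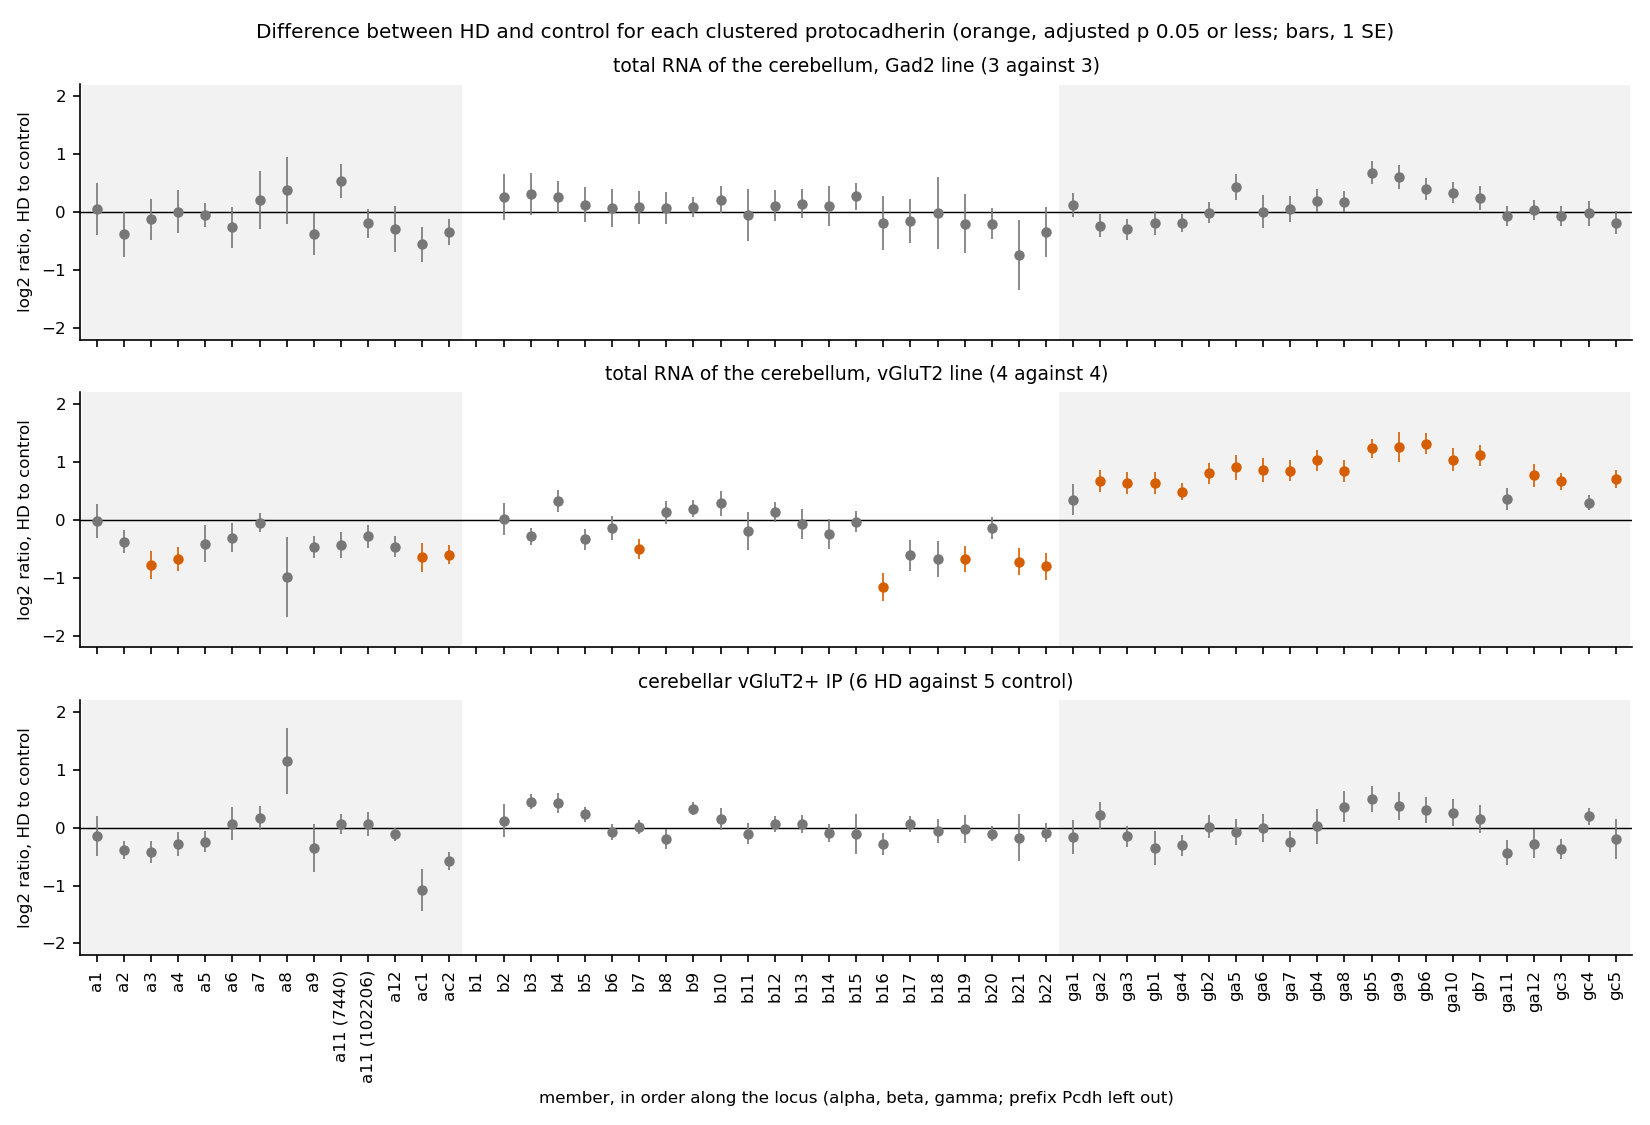
Log2 ratio of HD to control for each tested member in order along the locus, in cerebellar total RNA of the Gad2 line, of the vGluT2 line, and in the cerebellar vGluT2+ IP. Bars are 1 SE and orange marks an adjusted p of 0.05 or less; gamma genes lie above 0 in the vGluT2 line total RNA (median 0.80), with a median of 0.03 in the Gad2 line.

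The summed gamma level of the vGluT2 line in cerebellar total RNA was 326 ± 27.6 in HD and 210 ± 23.5 in control mice (SD, n = 4 each), with ranges of 309 to 367 and 179 to 234. The alpha sum was 23.6 ± 4.19 against 33.2 ± 3.13 and the beta sum 55.01 ± 12.0 against 61.5 ± 8.12. In ribosome-bound RNA of the cerebellar vGluT2+ neurons the gamma sum was 224 ± 28.0 in HD (n = 6) and 223 ± 28.6 in control mice (n = 5). Other values moved with the total RNA result, and the marker calls that follow are from the fit over both lines. Protein-coding genes took 90.9 to 93.0% of counts in the HD inputs of the vGluT2 line and 93.5 to 96.2% in the other cerebellar inputs. Astrocyte markers summed to 1573 CPM in HD and 2168 CPM in control inputs of that line (Aqp4 and Gja1 lower, 2 of 4), granule cell markers to 781 and 1461 CPM (0 of 3), Purkinje cell markers to 1753 and 2543 CPM (Calb1 lower, 1 of 3), and microglial markers to 109 and 73.3 CPM (Tmem119 and Csf1r higher, 2 of 4). GABAergic markers summed to 719 and 875 CPM (Gad1 and Gad2 lower, 2 of 3) and parvalbumin neuron markers to 2307 and 1675 CPM (0 of 3). Markers listed for striatal projection neurons (Drd1, Drd2 and Ppp1r1b) summed to 257 and 195 CPM, with no overlap between genotypes in that line (0 of 3 called). The study describes Ppp1r1b as abundant in cerebellar Purkinje neurons too, so this sum does not stand for striatal cells here. Choroid plexus markers ran from 42.2 to 1822 CPM in HD and from 215 to 1985 CPM in control inputs (0 of 3). The marker lists given here leave out oligodendrocytes. The part of cell makeup or of RNA quality in the gamma, Pcdhac1 and Pcdhac2 differences was not tested.

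Genes that act with the clusters were read in the same fits. Of 20 genes of promoter choice and chromatin looping, none was called in an HD comparison other than cerebellar total RNA, where 6 were lower and none higher: Nipbl, which loads cohesin (-1.74 ± 0.51), Pds5a (-1.14 ± 0.34), the cohesin subunit Smc3 (-1.13 ± 0.38), the cohesin release factor Wapl (-1.05 ± 0.33), Smchd1, which represses the clusters (-0.96 ± 0.33), and Zfp143 (-0.51 ± 0.17). Of 11 delta protocadherins, the relatives outside the clusters, Pcdh1 was higher (0.36 ± 0.12) and Pcdh17 lower (-0.98 ± 0.35). Of 17 intracellular partners, Axin1 (0.35 ± 0.12) and Nlgn2 (0.41 ± 0.13) were higher and Prkca (-0.68 ± 0.20) lower. These 3 lists were chosen with earlier results of these data known, and 25.6% of all genes were called in that comparison.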

How the data were processed

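RNA was sequenced from 67 RiboTag IP and 39 input libraries as stranded, paired reads of 100 bp, with 3 HD IP libraries re-sequenced at 150 bp. The authors aligned and quantified them with nf-core/rnaseq 3.0 (STAR and Salmon, versions not given in the sources used here; GRCm38.p6 per the submitters' processing notes) and deposited the estimated counts (expected counts) per gene, not normalized. Reads of 129S4 mice were thus counted on another reference strain, whose part in the values was not tested. Spike-in genes were left out, and the estimated counts rounded.

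Protein-coding genes with a mean count above 10 in the libraries compared were tested with edgeR 4.0.16 (R 4.3.3; quasi-likelihood test, TMM), with Benjamini-Hochberg adjustment over all genes tested and calls at 0.05. SE is the log2 ratio divided by the square root of F. Inputs of a region were fitted together with Cre line as covariate, and IP against input with genotype as covariate. The script was tested on simulated counts. CPM are scaled by TMM over all libraries, and the level is CPM per kilobase of mean transcript length. Intervals were not computed for single counts, since each group had replicates. Total counts of 21905200 to 107754000 per library set the precision.

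Named with values were the 5 C-types, the extremes of level in each subgroup, members called in an HD comparison, the member with the smallest p in each, and the largest calls without overlap in other comparisons. Further members were named after their values were seen. Members and gene lists were chosen with earlier results of these data known. Alternatives were DESeq2 1.42.0, its size factors, no filter, blocks, single Cre lines and leaving out libraries. The interaction of Cre line and genotype, leaving out libraries of total RNA and interactions, and leaving out the SST control mice with another letter code, were chosen with the values already known, after seeing the data. Region contrasts of the IPs are paired by mouse (11 of 11 pairs from the same mouse, correlation of deviations -0.338 to 0.663). That of total RNA is paired only in part and was fitted without a block. The summed oligodendrocyte markers are not reported here.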

Additional observations from a re-analysis of the deposited data

Results flagged for a closer look

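In 138 group tests for a library far from the rest of its group, 16 values passed, where chance gives about 1 in 20 groups. Pcdhac2 did so in 5 groups: 117.6 CPM in replicate 2 of the control cerebellar Gad2+ IP (others 148.8 to 160.4), 23.83 CPM in replicate 1 of the control SST+ IP (66.04 to 70.13), 38.01 CPM in replicate 1 of the control SST line input (62.07 to 65.0), 73.53 CPM in replicate 2 of the control cerebellar vGluT2+ IP (47.25 to 53.56) and 38.66 CPM in replicate 3 of the HD cerebral Gad2+ IP (60.61 to 72.76). Pcdhgc5 was at 11.47 CPM in replicate 1 of the control SST+ IP (45.11 to 57.14). Pcdhgc4 was high at 365.8 CPM in replicate 1 of the control cerebral vGluT2+ IP (236.4 to 258.3), at 431.9 CPM in replicate 1 of its HD group (251.3 to 318.6) and at 660.5 CPM in replicate 4 of the HD cerebellar Gad2+ IP (425 to 484.9). Pcdhga5 was at 8.096 CPM in replicate 2 of the control cerebellar vGluT2 line input (11.25 to 11.42). Pcdhac1 was at 0 CPM in the re-sequenced library of the HD cerebral vGluT2+ IP (5.424 to 8.349).

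Of the 16, 5 were summed levels. The alpha sum was 27.28 in replicate 1 of the control cerebral vGluT2+ IP (others 43.51 to 50.07), 38.59 in replicate 4 of the HD cerebellar Gad2+ IP (58.02 to 67.14) and 22.76 in replicate 4 of the HD SST+ IP (37.91 to 39.69). The beta sum was 55.85 in replicate 4 of the HD cerebellar Gad2+ IP (74.99 to 85.68). The gamma sum was 367.2 in replicate 1 of the HD cerebellar vGluT2 line input (309.3 to 314.8).

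Pcdhgb8, annotated as a polymorphic pseudogene and outside the members, had counts in all 106 libraries, with a mean of 14.85 CPM and a range of 0.6686 to 55.32 CPM.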

How the results depend on the processing

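With DESeq2 the HD comparison called 3 members in the cerebellar vGluT2+ IP, the interaction of Cre line and genotype called 9, and PV+ against SST+ called 2 higher. In HD cerebellar total RNA the count was 0 with the replicate block, 0 in the Gad2 line alone and 27 in the vGluT2 line alone. Against inputs of the same Cre line, 6 members were lower in the cerebral Gad2+ IP and 9 higher in the cerebral vGluT2+ IP, and 5 were higher there with the mouse as a block. Shares of all genes are not given for these IP against input fits. The replicate block left 0 members lower in PV+ against SST+, and no filter on low counts left 3 lower in the regional contrast of total RNA. Leaving out 1 library gave 0 to 1 members for HD in the cerebellar vGluT2+ IP, 2 to 23 in HD cerebellar total RNA, 3 to 5 lower in cerebral vGluT2+ against Gad2+, 0 to 2 higher and 1 to 2 lower in PV+ against SST+, 3 to 7 lower in the regional contrast of total RNA and 0 to 6 for the interaction of Cre line and genotype. In HD cerebellar total RNA the calls among all genes ranged from 92 to 7456 over the left-out fits. For the other left-out fits, and for those with a block or no filter, shares of all genes are not given. Whether those counts moved more than the counts of all genes cannot be read from them. The cause of these changes was not tested. In cerebellar total RNA of the Gad2 line alone, Pcdhgc3, Pcdhgc4 and Pcdhgc5 had log2 ratios of -0.07, -0.02 and -0.18, against 0.36, 0.17 and 0.34 over both lines. Another transcript length or leaving out the TMM factors moved 19 summed values of the gamma and beta clusters by more than 1 SD. Of the other alternative log2 ratios of named members, none reversed, 973 kept their side of the threshold, 115 lost a call and 8 gained one.

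HD and control mice share only a number (48 same-numbered pairs, correlation of deviations -0.849 to 0.965, 25 over 0.1, 17 best with their own number). The replicate block gave 0 members for HD in every IP and in cerebral total RNA, and moved no count other than those given above by more than 1.5 times. The library with the fewest had 20151 counts on members, which limits the low members most.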
